A study of Mus musculus with 4 samples.

Results

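The wild-type cerebral cortex was compared between embryonic day 14.5 (E14.5) and the day of birth (P0) in 2 single-cell RNA sequencing libraries, each from 1 mouse. Every barcode with at least 500 counts, at least 300 detected genes and at most 10% mitochondrially encoded counts was taken, which gave 620 of 622 barcodes at E14.5 and 1047 of 1073 at P0. These 1667 cells belong to a series of 7210 cells that passed the same rule in 4 libraries. The other libraries, 1 for each age, are labelled as knockouts of Tsku, which encodes the secreted proteoglycan Tsukushi, and they hold 5543 cells. The labels name no strain. All tissue was dissociated with trypsin and prepared with the Asteria kit, per the labels' protocols.

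Between these ages the mouse cortex passes from making neurons to making glia. Radial glia, the stem cells that line the ventricle, first give rise to projection neurons, those of the deep layers before those of the upper layers. Later, many of the same stem cells turn to astrocytes and oligodendrocyte precursors, while inhibitory neurons migrate in from the ganglionic eminences below. The comparison asks which transcripts distinguish the cortex at either end of that period in animals that carry Tsku.

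The kept cells held 5606381 counts at E14.5 and 6042033 at P0, with medians of 7345.5 and 4807 counts and 3042.5 and 2414 genes per cell. Only 2 barcodes occurred in both wild-type libraries. Cortical identity genes were counted at both ages: the dorsal factor Emx1 stood at 44.1 CPM (counts divided by the library's sum and scaled to 1000000) at E14.5 and 34.4 at P0, and the projection neuron factor Tbr1 at 123 and 101. Both wild-type libraries carried Y-linked transcripts, with Ddx3y at 88.5 and 110 CPM, whereas the library labelled E14.5 knockout had 466 CPM of Xist, the transcript of the inactive X chromosome. Tsku itself had 54 counts at E14.5 (9.63 CPM) and 42 at P0 (6.95 CPM), a log2 ratio of -0.47 with a 95% interval of -1.09 to 0.14 that includes no change. Tsku stood at 5.14 CPM in the library labelled E14.5 knockout and at 0 counts in the P0 knockout, so that the former does not carry the absence its label names.

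Counts were summed over all cells of a library and divided by the library's total, to give CPM. The ratio of P0 over E14.5 was measured for the 13270 genes that reached 30 counts in the 2 libraries together. A gene was called when the ratio reached 2-fold and its 95% counting interval left out 1. With 1 animal per age there is no test across animals, and the intervals cover counting error only. In such sums, more cells of a type and more RNA per cell cannot be told apart. Of the genes measured, 806 rose (6.07%) and 658 fell (4.96%), with a median log2 ratio of 0.07 over all of them. Under TMM scaling these counts were 709 and 728, so the balance between them turned with the scaling. The knockout-labelled pair shares no library with the wild-type pair, and 95.5% of the genes that rose and 79.3% of those that fell went the same way there, against 70.4% of all genes measured. By at least 2-fold, 74.7% and 49.1% did so. Some genes named below were picked partly for a 2-fold ratio of the same sign in that pair. Olig1, Bcl11b, Fezf2, Lhx9, Klf9 and Trim9 are among them, so their direction there is no separate support.

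**Figure D1:**
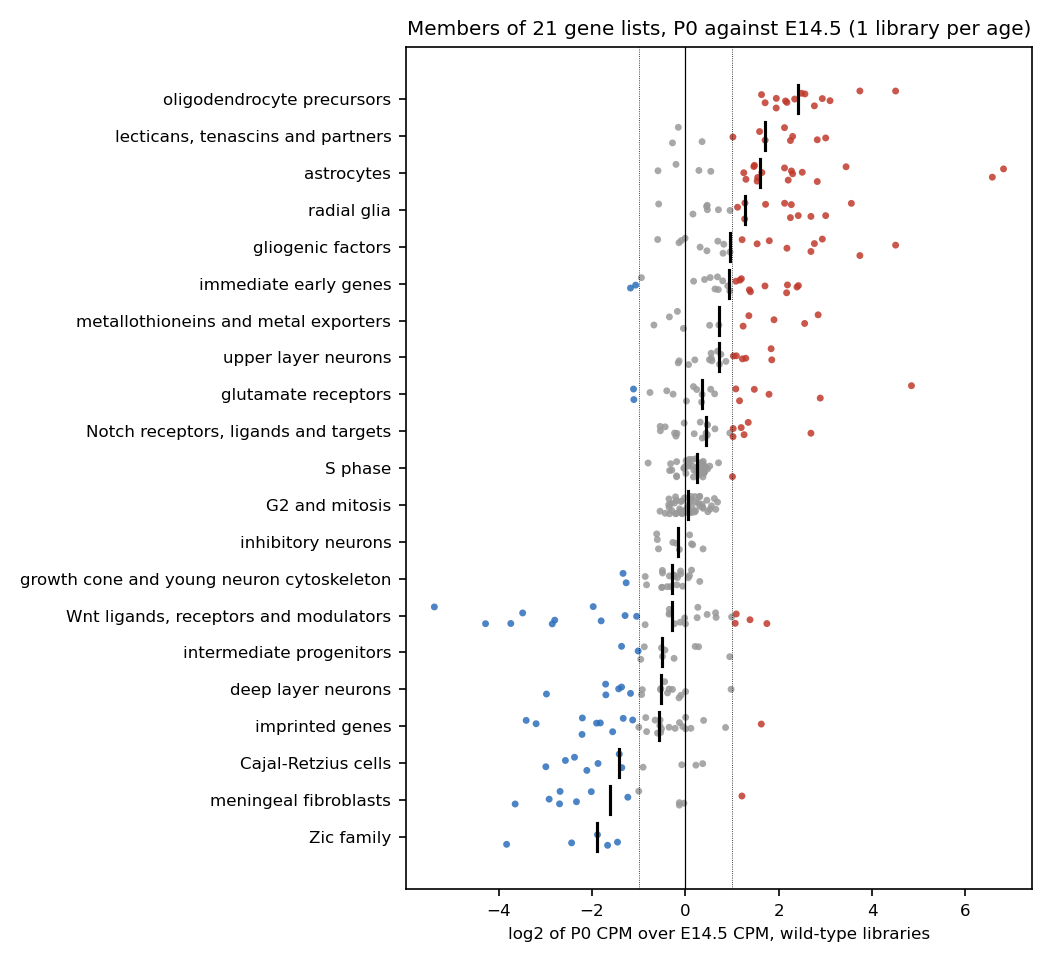
Log2 ratio of P0 over E14.5 CPM in the wild-type libraries (horizontal axis) for the measured members of 21 gene lists (rows), with 1 point per gene. Red points were called higher at P0, blue points were called lower, grey points were not called, black bars mark each list's median and dotted lines mark 2-fold; every measured oligodendrocyte precursor gene lies to the right and every Zic gene to the left.

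Transcripts of glia rose in several lists. All 14 measured genes of the oligodendrocyte precursor list were called higher at P0, with a median log2 ratio of 2.42. Olig1, a basic helix-loop-helix factor of the oligodendrocyte lineage, went from 17.8 CPM at E14.5 to 238 at P0, a log2 ratio of 3.74 (3.45 to 4.05). Its partner Olig2 went from 15 to 102 CPM, and Sox10, which drives the lineage towards myelin genes, from 0.713 to 16.2 CPM. The growth factor receptor Pdgfra, the surface marker of these precursors, went from 32.5 to 165 CPM, and the proteoglycan Cspg4 from 18.6 to 60.7 CPM. The 4 counts of Sox10 at E14.5 came from a single cell. In the library labelled E14.5 knockout Olig1 stood at 8.96 CPM, and in the P0 knockout at 326.

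Genes of myelin were at low levels, with a summed 50.3 CPM at E14.5 and 68.9 at P0 over their list. Of the 12 genes listed for myelinating oligodendrocytes only 6 reached 30 counts. Among these, Cnp (10.2 to 26.5 CPM) and Ugt8a (2.50 to 5.63 CPM) rose and Mal fell. That is 33.3% higher and 16.7% lower, against 6.07% and 4.96% of all genes measured. Mbp, myelin basic protein, stood at 10.2 CPM at E14.5 and 12.4 at P0. The interval of its ratio included 1.

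Of 20 measured astrocyte genes, 16 rose and none fell, with a median log2 ratio of 1.60. Aqp4, the water channel of astrocyte endfeet, had 3 counts at E14.5 and 365 at P0, which is 0.535 against 60.4 CPM and a log2 ratio of 6.82 (5.26 to 9.10). The intermediate filament gene Gfap had 1 count against 103 (0.178 and 17.0 CPM). The GABA transporter Slc6a11 went from 13.6 to 148 CPM, the folate enzyme Aldh1l1 from 17.3 to 98.3, the matricellular protein Sparcl1 from 156 to 683, and the lipid carrier Apoe from 222 to 529. The glutamate transporter Slc1a2 went from 97.7 to 241 CPM. The gap junction gene Gja1 (70.6 and 61.6 CPM) and Clu (59.0 and 39.4 CPM) went the other way without reaching 2-fold. Other genes with large ratios that are known from astrocytes or their precursors were Hepacam, a glial adhesion molecule (2.50 to 79.3 CPM), Dio2, which makes active thyroid hormone (5.71 to 75.5 CPM), and Egfr, the receptor for epidermal growth factor (6.06 to 58.8 CPM). The peptidase gene Folh1 (0.178 to 8.28 CPM), the mitochondrial carrier Slc25a18 (0.535 to 12.6 CPM), the cadherin Cdh20 (1.43 to 20 CPM) and the peptide transporter Slc15a2 (10.9 to 95.8 CPM) rose as well.

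Radial glia share many transcripts with astrocytes, and 11 of 18 genes on their list rose, with a median of 1.28. Fabp7, a fatty acid binding protein of radial glia, went from 856 to 4137 CPM, a log2 ratio of 2.27 (2.23 to 2.32). The Notch effector Hes5 went from 81.3 to 526 CPM, the glutamate transporter Slc1a3 from 121 to 650, the receptor phosphatase Ptprz1 from 366 to 1743, and Hopx, which marks outer radial glia and astrocyte precursors, from 5.17 to 17.0. Markers of the stem cell state that are not specific to the glial phase moved less: Sox2 stood at 239 and 332 CPM, Pax6 at 65.8 and 108, and Nes at 204 and 281, none of them called. Vim, the intermediate filament gene of immature radial glia, was at 468 CPM at E14.5 and 315 at P0. Among 19 gliogenic factors 9 rose and none fell (median 0.96). Nfia (710 and 646 CPM) and Nfib (2659 and 2505 CPM), the nuclear factors that open glial genes, were already at their P0 level in the E14.5 library, while Sox9 (163 and 316 CPM) and Zbtb20 (837 and 1482 CPM) lay just under 2-fold.

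Most genes of the brain matrix list rose. Of 11 measured lecticans, tenascins and their partners, 8 rose and none fell, with a median of 1.71. Tnc, tenascin C of the stem cell niche, went from 40.3 to 324 CPM, the lectican Bcan from 28.4 to 201, the chondroitin sulfate proteoglycan Cspg5 from 48.5 to 239, and Ncan from 231 to 469. Vcan stood at 247 CPM at E14.5 and 204 at P0 and was not called. The medians of these 5 glial and matrix lists stayed above 0 under each of the 12 other settings tried over whole libraries.

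**Figure D2:**
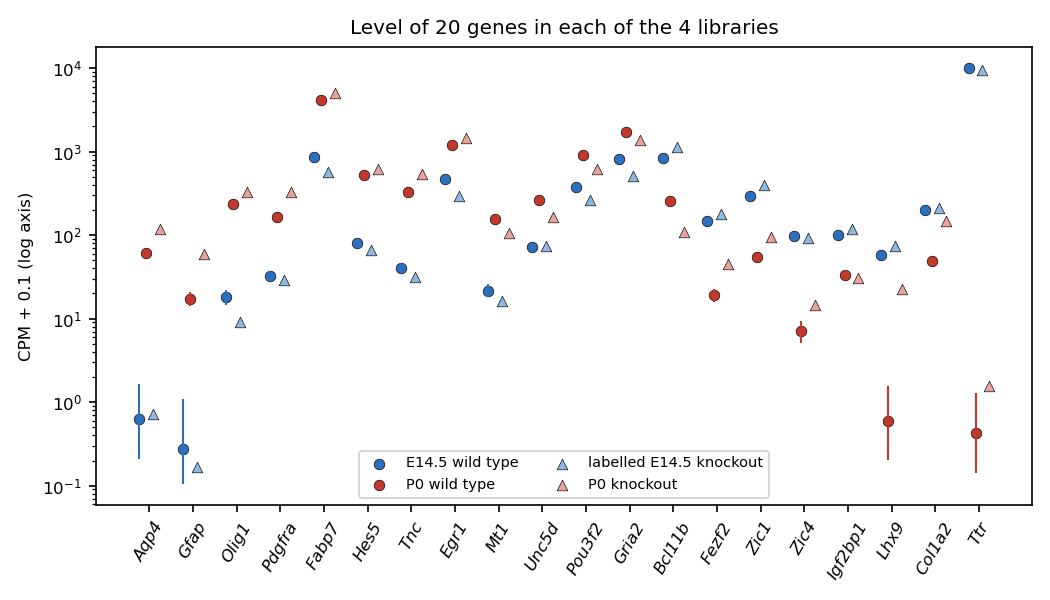
CPM plus 0.1 on a log axis (vertical) for 20 genes (horizontal) in the wild-type libraries (circles) and the knockout-labelled libraries (triangles). Vertical lines are exact Poisson 95% intervals of the wild-type values, and blue symbols are E14.5, red symbols P0; Aqp4 goes from 0.535 to 60.4 CPM and Lhx9 from 58.3 to 0.497 in wild type.

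Some deep layer genes of projection neurons fell and some upper layer genes rose. Of 18 genes on the deep layer list none rose and 6 fell (median -0.53), and of 18 on the upper layer list 6 rose and none fell (median 0.71). Bcl11b, a zinc finger factor of subcerebral neurons, went from 831 CPM at E14.5 to 256 at P0, a log2 ratio of -1.70 (-1.78 to -1.62). Fezf2, which specifies corticospinal neurons, went from 149 to 19 CPM, and Sox5, which times the production of deep layer neurons, from 331 to 123. Crym (59.9 to 18.4 CPM), Rprm (199 to 77.5 CPM) and Nr4a2 (44.8 to 19.9 CPM) also fell. Tbr1, the layer 6 factor, stood at 123 and 101 CPM, and Etv1, of layer 5, went the other way (61.0 and 120 CPM) just under 2-fold.

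Upper layer genes that rose included the netrin receptor Unc5d, from 73.0 to 264 CPM with a log2 ratio of 1.85 (1.70 to 2.01), the POU factors Pou3f2 (376 to 922 CPM) and Pou3f3 (391 to 835 CPM), and the homeobox gene Cux2 (79.6 to 186 CPM). In the knockout-labelled pair Unc5d stood at 73.8 and 166 CPM, Pou3f2 at 263 and 622, Bcl11b at 1139 and 108, and Fezf2 at 179 and 44.5.

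Some genes of neuron production fell. Of 14 proneural and neurogenic factors 3 fell (21.4%) and none rose (median -0.13, with 6 above 0). Of 11 intermediate progenitor genes 2 fell (18.2%) and none rose (median -0.49). Over all genes measured, 4.96% fell. Eomes, the T-box factor of intermediate progenitors, went from 310 to 154 CPM, a log2 ratio of -1.01 (-1.13 to -0.89). It was -0.98, and not called, with a stricter filter on counts, genes and mitochondrial share per barcode. The proneural gene Neurog2 stood at 116 and 63.2 CPM and Neurod6 at 916 and 482, both under 2-fold, while Neurod2 was nearly level at 623 and 592. Nhlh1, a helix-loop-helix gene of newborn neurons, went from 16.6 to 1.82 CPM. The vesicular glutamate transporter Slc17a7 had 81 counts at E14.5 and 21 at P0, and the other transporter of these neurons, Slc17a6, stood at 68.5 and 106 CPM.

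Most genes of axon outgrowth and of neuronal signalling were not called. Among 22 genes of the growth cone and young neuron cytoskeleton 2 fell and none rose: Map1b, a microtubule protein, from 3164 to 1316 CPM, and Gap43, of the growth cone membrane, from 748 to 297. The neurofilament genes Ina (456 to 123 CPM), Nefm (116 to 25.7 CPM) and Nefl (30.3 to 7.78 CPM) fell. Among 35 guidance genes 6 fell, including the semaphorin receptor Nrp2 (166 to 18.0 CPM) and the netrin receptor Dcc (238 to 111 CPM), and 2 rose, Unc5d and the semaphorin Sema3c (90.3 to 276 CPM). The AMPA receptor subunit Gria2 went from 820 to 1737 CPM, a log2 ratio of 1.08 (1.03 to 1.13). With Gria2, 6 of 18 glutamate receptor genes rose and 2 fell; the metabotropic receptors Grm3 (4.10 to 30.5 CPM) and Grm5 (32.5 to 90.5 CPM) were among the former and the kainate receptor Grik3 (35.5 to 16.6 CPM) among the latter. In the gates defined further on, 6 of 9 glutamate receptor genes rose and none fell in the glial gate (median 1.88), and 1 of 11 rose and 2 fell in the Neurod gate (median 0.06). Over all genes measured, 10.2% rose and 4.36% fell in the glial gate, and 4.71% and 4.22% in the Neurod gate. In the whole library these shares were 6.07% and 4.96%. Of 25 voltage-gated channel genes 4 rose and 3 fell (median 0.24). Of 16 GABA receptor and chloride transporter genes 3 rose, among them Gabra2 (57.1 to 158 CPM). Slc12a5, the chloride exporter of mature neurons, had 32 counts at E14.5 and 22 at P0.

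Inhibitory neuron genes gave a mixed picture. None of the 10 genes common to these neurons was called: Gad2, which makes GABA, stood at 80.8 and 90.2 CPM and Dlx1 at 235 and 251. Genes of single origins moved in both directions. Of 12 medial eminence genes 3 rose and 2 fell (median 0.04), with summed levels of 508 and 563 CPM. The patterning gene Nkx2-1 went from 17.5 to 1.66 CPM and the neuropeptide Sst from 37.6 to 14.7, while the neurexin ligand Nxph1 went from 15.5 to 46.7. Of 10 caudal and lateral eminence genes 2 rose and 1 fell (median 0.60), among them Sp8, from 9.81 to 43.9 CPM. Striatal genes fell in 5 of 10 cases, with Isl1 at 33.0 and 1.16 CPM, Ebf1 at 76.3 and 13.4, and Six3 at 73.1 and 11.6. Zfhx3, a homeobox gene of many subcortical inhibitory neurons, went from 117 to 28.5 CPM.

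Markers of neurons at the edges of the cortex or outside it differed by list. In the Cajal-Retzius list, of early neurons at the pial surface, 7 of 11 genes fell (median -1.41), including Ebf3 (22.3 to 2.81 CPM) and Nhlh2 (61.7 to 11.9 CPM). The list's median in the knockout-labelled pair was -0.26, and 5 of these 7 genes went the same way there. Only 5 cells at E14.5 and 2 at P0 had at least 1% of their counts in this list. Those cells held 41.9% and 40.8% of the list's counts. Reln, the secreted guide of neuron migration, went from 86.2 to 33.6 CPM, but 1 cell held 52% of its counts at E14.5 and 1 cell held 68% at P0, and the knockout-labelled pair stood at 48.1 and 58.0 CPM. Of 10 thalamic genes 4 fell and 1 rose, with 5 on either side of 0, and the median was -0.33 in wild type and 0.11 in the other pair. Lhx9, a LIM factor of the thalamus and medial pallium, had 327 counts at E14.5 and 3 at P0 (58.3 and 0.497 CPM), a log2 ratio of -6.88 (-9.16 to -5.32), and stood at 73.1 and 22.4 CPM in the other pair. Shox2 had 83 counts and 0, which is 29.8-fold lower with 3 counts set in place of 0, and Tcf7l2 went from 116 to 29.5 CPM. The part of the dissection borders in the striatal and thalamic values was not tested, nor in those of medial, midline and choroid plexus genes here and below. Other genes with large falls were Dmrt3, a patterning factor of the medial cortex (11.4 to 0.828 CPM), the homeobox gene Nkx2-3 (9.10 to 0.497 CPM), the pentraxin Nptx1 (11.8 to 1.49 CPM) and Tmem200a (18.7 to 3.81 CPM).

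To ask whether these differences held among cells alike in their defining transcripts, each cell was thinned to 1500 counts and sorted by 3 rules. The Neurod gate held cells with at least 2 counts of Neurod2 and Neurod6 and none of Gad1, Gad2, Dlx1, Dlx2, Dlx5 or Dlx6os1. The Gad/Dlx gate held cells with at least 2 counts of the latter genes and none of the former. The glial gate held other cells with at least 5 counts of Fabp7, Slc1a3, Ptprz1, Hes5 and Sox2. These are rules on counts and not cell types, and genes of the glial rule were themselves higher at P0. The number of cells 1 count short of a gate was 36, 23 and 8 at E14.5 and 64, 36 and 11 at P0, in the order of the gates.

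The glial gate held 62 of 619 thinned cells at E14.5 (10.0%, exact binomial 95% interval 7.77 to 12.7) and 276 of 1046 at P0 (26.4%, 23.7 to 29.2). The Neurod gate held 42.5% (38.6 to 46.5) and 38.1% (35.2 to 41.2), and the Gad/Dlx gate 16.8% (13.9 to 20) and 14.9% (12.8 to 17.2), each pair with overlapping intervals. The cells outside every gate were 30.7% and 20.6%. In the knockout-labelled pair the glial gate held 10.5% at E14.5 and 38.3% at P0.

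Within the Neurod gate 468 of 9926 genes rose (4.71%) and 419 fell (4.22%), and the median ratio was -0.79 over the deep layer list and 1.01 over the upper layer list. Bcl11b went from 1246 to 151 CPM there, a log2 ratio of -3.05, Fezf2 from 297 to 18.7 (-3.99) and Sox5 from 633 to 117 (-2.44). In all, 8 of 18 deep layer genes fell and 1 rose, and 9 of 17 upper layer genes rose and none fell, with Unc5d at 128 and 547 CPM, Pou3f2 at 520 and 1652, Cux2 at 120 and 312, and Cux1 at 142 and 286. Bcl11b in the Gad/Dlx gate stood at 1190 and 839 CPM and was not called. Slc17a6 rose in the Neurod gate, from 102 to 215 CPM, Gria2 from 1544 to 3313, and the semaphorin Sema3c from 143 to 589.

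The share of Neurod-gate cells with a count moved the same way at equal depth. Bcl11b was counted in 160 of 263 cells at E14.5 (60.8%) and in 56 of 399 at P0 (14%), against 6.45% and 2.54% in the glial gate. Fezf2 was counted in 20.9% and 2.76% of Neurod-gate cells and in 0 of 104 and 0 of 156 Gad/Dlx-gate cells, which allows shares of up to 3.48% and 2.34%. Unc5d was counted in 18.6% and 51.4% of Neurod-gate cells and in 0 of 104 and 3.21% of Gad/Dlx-gate cells, and Pou3f2 in 43.3% and 83.0%. Median depth before thinning was 7375 and 4566 counts in the Neurod gate, 6020.5 and 4193 in the Gad/Dlx gate and 7890 and 5764.5 in the glial gate.

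**Figure D3:**
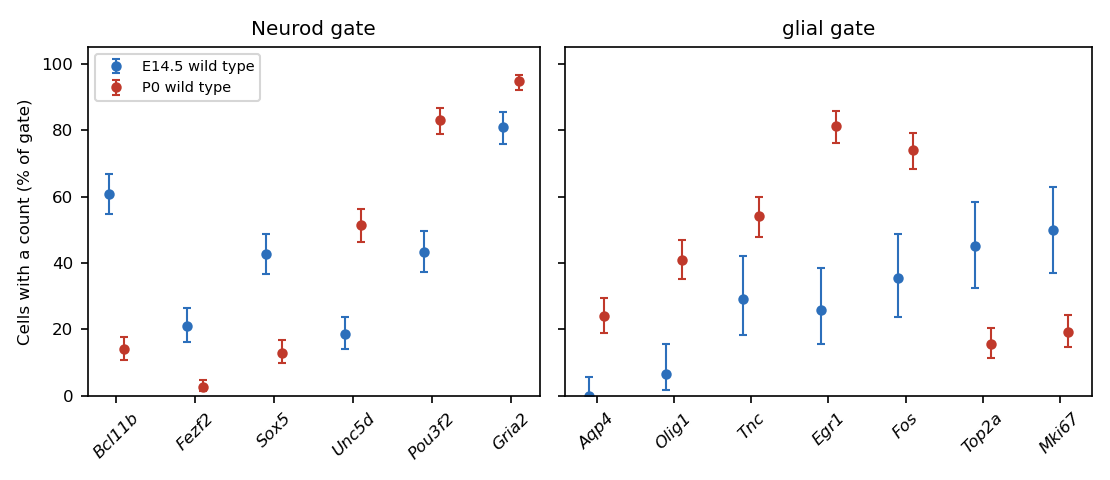
Percentage of cells with at least 1 count of each gene (vertical axis) after thinning to 1500 counts, in the Neurod gate (left) and the glial gate (right) of the wild-type libraries. Points are shares and bars exact binomial 95% intervals; Bcl11b goes from 60.8% to 14% of Neurod-gate cells and Egr1 from 25.8% to 81.2% of glial-gate cells.

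Within the glial gate 949 of 9287 genes rose (10.2%) and 405 fell (4.36%). Of 20 astrocyte genes 13 rose and none fell there, and of 13 oligodendrocyte precursor genes 11 rose and none fell. Aqp4 was counted in 0 of 62 glial-gate cells at E14.5, which allows a share of up to 5.78% by the exact interval, and in 66 of 276 at P0 (23.9%), beside 0.251% of Neurod-gate cells at P0. Olig1 was counted in 4 of 62 cells (6.45%) and 113 of 276 (40.9%), beside 1.00% of Neurod-gate cells at P0. Sparcl1 went from 268 to 1773 CPM within the gate, Slc1a2 from 93.5 to 722, Tnc from 352 to 1059, and the ubiquitin ligase gene Trim9 from 34.8 to 516. Vim fell there, from 1694 to 816 CPM, as did the fibre-forming collagen gene Col1a2, from 123 to 16. Col3a1, another collagen gene, had 46 counts in the 62 cells at E14.5 and 0 at P0. The part of fibroblast RNA in these collagen values was not tested.

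Mitotic genes were not called in the whole library and fell in the glial gate. Of 54 genes of G2 and mitosis none was called in the whole library, with a median log2 ratio of 0.05 and summed levels of 6488 CPM at E14.5 and 6458 at P0. That median was -0.02 under TMM or median-of-ratios scaling. In the glial gate 31 of the 54 fell and none rose (median -1.08). Top2a, the topoisomerase of dividing cells, went from 1397 to 460 CPM there, a log2 ratio of -1.60, Mki67 from 1058 to 412, the ubiquitin carrier Ube2c from 332 to 76.7, the kinase Cdk1 from 207 to 98.2 and the checkpoint target Cdc20 from 205 to 71.8. In the Gad/Dlx gate, where 4.20% of all measured genes rose and 2.37% fell, 6 of the 54 rose and none fell, with Top2a at 926 and 890 CPM, and in the Neurod gate 7 of 39 fell. Cells with at least 10 thinned counts of these genes were 33 of 62 in the glial gate at E14.5 (53.2%, 40.1 to 66.0) and 67 of 276 at P0 (24.3%, 19.3 to 29.8), and 26.9% and 29.5% in the Gad/Dlx gate. In the knockout-labelled pair the glial-gate shares were 65.9% and 22.2%. Of 43 S phase genes 1 rose in the whole library, E2f8, and 5 of 42 fell in the glial gate. The inhibitor Cdkn1c went from 240 to 67.9 CPM in the whole library, and the G1 cyclin Ccnd2 stood at 942 and 1679.

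**Figure D4:**
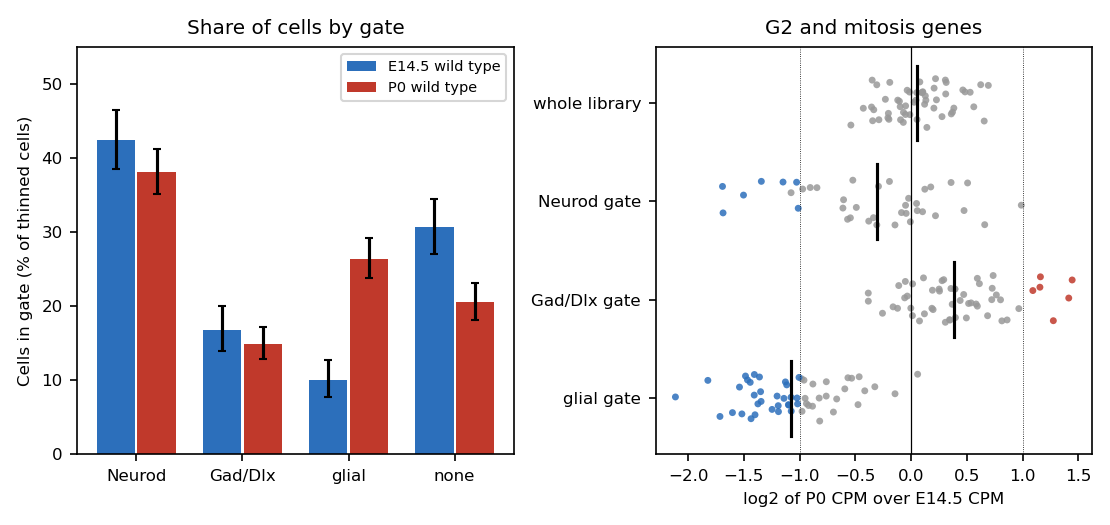
Left, share of thinned cells in each gate (vertical axis, percent, from 0) at E14.5 and P0 with exact binomial 95% intervals; right, log2 ratio of P0 over E14.5 for the measured genes of G2 and mitosis in the whole library and in each gate. Red and blue points were called higher and lower, black bars are medians and dotted lines mark 2-fold; the glial-gate median is -1.08 and that of the whole library 0.05.

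Many genes of G2 and mitosis carry the cell cycle genes homology region, TTTGAA, near the start of transcription, where the DREAM and MuvB complexes act. RefSeq promoter windows of 300 bases (build GRCm38.p6) were found for 47 of the 54 genes. The letters TTTGAA, on either strand, lay in 34 of the 52 windows of these genes (65.4%), in 6 of the 34 windows of S phase genes (17.6%) and in 17.9% of all 32851 windows. Of the genes that fell in the glial gate 18 of 27 with a window held the motif, and of those not called there 15 of 20. The 120 bases before the start are shown for 5 of the genes named above, because they share the motif; capitals mark it on either strand.
Cdk1, chr10:69352913-69353032, minus strand: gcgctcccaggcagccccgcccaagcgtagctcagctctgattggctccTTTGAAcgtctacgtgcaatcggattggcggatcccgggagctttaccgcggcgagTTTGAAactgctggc
Ube2c, chr2:164769809-164769928, plus strand: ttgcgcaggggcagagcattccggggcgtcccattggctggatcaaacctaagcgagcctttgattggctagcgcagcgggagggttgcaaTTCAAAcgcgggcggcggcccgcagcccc
Top2a, chr11:99024190-99024309, minus strand: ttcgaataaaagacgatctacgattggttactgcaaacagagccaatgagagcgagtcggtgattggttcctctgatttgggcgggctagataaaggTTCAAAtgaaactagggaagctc
Cdc20, chr4:118437344-118437463, minus strand: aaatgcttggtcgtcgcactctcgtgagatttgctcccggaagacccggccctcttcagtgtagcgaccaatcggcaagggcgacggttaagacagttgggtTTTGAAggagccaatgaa
Mki67, chr7:135716380-135716499, minus strand: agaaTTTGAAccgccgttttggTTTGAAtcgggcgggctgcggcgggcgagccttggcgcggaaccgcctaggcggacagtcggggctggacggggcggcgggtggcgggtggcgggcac
The first letter of the motif nearest the start lay 15 bases before it in Cdk1, 29 in Ube2c, 23 in Top2a and 18 in Cdc20, and 98 bases before it in Mki67. A match is a run of letters and not a measured site.

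Several transcripts of early development fell. Zic factors, zinc finger genes of the medial wall, septum and meninges, fell: Zic1 from 295 to 54.6 CPM, Zic4 from 98.6 to 6.95, Zic2 from 71.9 to 19.5 and Zic5 from 91.0 to 33.3. Zic1 and Zic4 lie head to head on opposite strands, with starts 3204 bases apart in the RefSeq table. Both fell in all 3 gates, and Zic4 had log2 ratios of -4.17, -4.89 and -3.08 in the Neurod, Gad/Dlx and glial gates. At equal depth Zic1 was counted in 6.08% and 4.01% of Neurod-gate cells, with overlapping intervals. In the Gad/Dlx gate its shares were 17.3% and 1.92%, and in the glial gate 12.9% and 4.35%. Zic4 was counted in 5 and 1 Neurod-gate cells, 4 and 0 Gad/Dlx-gate cells and 7 and 5 glial-gate cells. The part of free RNA and of the dissection borders in the Zic values was not tested. Of 13 heterochronic genes, which mark early stem cells, 4 fell and none rose. Igf2bp1, an RNA-binding protein of fetal tissues, went from 101 to 33.3 CPM, with log2 ratios of -2.45, -1.66 and -1.66 in the gates, Igf2bp2 from 43.0 to 9.60, the chromatin protein Hmga2 from 9.28 to 2.15, and Lin28b, which blocks let-7 maturation, had 27 counts and 6.

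Of 28 imprinted genes 9 fell and 1 rose (median -0.57). H19, a maternally expressed noncoding RNA, went from 184 to 39.7 CPM and fell in all 3 gates, although 1 cell held 44% of its counts at E14.5. Without the cells rich in non-neural markers its log2 ratio was -0.50, and it was no longer called. Dlk1 (22.8 to 2.15 CPM), Magel2 (9.10 to 0.993 CPM), the noncoding Rian (142 to 56.6 CPM) and Igf2 (56.7 to 26 CPM) fell as well, while Nnat, a paternally expressed proteolipid gene, stood at 2038 and 1133. Ddc was the gene that rose, from 9 counts to 30.

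In all 3 gates 6837 genes could be measured, of which 15 rose and 13 fell in every one. Those with the largest median ratio were Zic4, Tmem132b, Wdfy1, Mir6236, Apoe, Zic1, Akap7, Dusp26, H19 and Lpin1. Apoe went from 7.72 to 29.0 CPM in the Neurod gate, from 6.78 to 38.4 in the Gad/Dlx gate and from 189 to 1040 in the glial gate. At equal depth Apoe was counted in 1.14% and 3.26% of Neurod-gate cells and in 16.1% and 54.7% of glial-gate cells. The part of free RNA in the neuronal values was not tested. Wdfy1, of endosomal signalling, went from 18.9 to 79.1, from 16.3 to 94.0 and from 14.7 to 90.0 CPM. It had a log2 ratio of 0.33 in the whole knockout-labelled pair. Trim9 rose in every gate too and had log2 ratios of 2.94 in the wild-type pair and 2.93 in the other. A 2-fold rise in the other pair was part of the rule that named it.

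Signalling lists moved in different directions. In the Notch list 6 of 23 genes rose and none fell (median 0.45), among them Hes5, the effector Hey1 (21.8 to 55.4 CPM), the glycosyltransferase Lfng (20.5 to 49.2 CPM) and the feedback gene Nrarp (41.9 to 85.2 CPM). The receptor Notch1 stood at 84.0 and 163 CPM, the ligand Dll1 at 24.8 and 31.9 and the DNA-binding partner Rbpj at 110 and 75.8, none of them called.

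In the FGF list 6 of 21 genes rose and 4 fell. Fgf17 had 103 counts at E14.5 and 0 at P0, at least 37.0-fold lower, Fgf8 had 33 and 0, at least 11.9-fold lower, and Fgf15 had 57 and 1. A single cell held 48% of the Fgf17 counts, and the part of the dissection borders in these falls was not tested. The ERK-induced genes Etv4 (11.1 to 42.9 CPM), Etv5 (34.2 to 84.7 CPM), Spry2 (27.1 to 99.8 CPM) and Spry4 (7.49 to 27.0 CPM) rose, as did the receptor Fgfr3 (31.4 to 87.7 CPM). All of these but Fgfr3 were also called higher within the glial gate, with Spry2 at 88.0 and 265 CPM.

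Of 28 Wnt genes 10 fell and 4 rose. The falls included ligands and agonists of the cortical hem and antihem, namely Wnt8b (13.7 to 0.331 CPM), Rspo3 (79.9 to 11.1 CPM) and Wnt5a (53.0 to 21.7 CPM), and the nuclear effector Lef1 (27.1 to 7.78 CPM). The rises included the secreted Dkk3 (35.0 to 118 CPM) and the Wnt deacylase Notum (11 counts and 31). The target Axin2 stood at 41.9 and 42.0 CPM. In the BMP list Id3 (89.2 to 259 CPM) and Id1 (37.3 to 86.7 CPM), targets of the pathway, rose, and the dorsal midline genes Msx1 (31.2 to 3.14 CPM) and Bmp4 (7.13 to 1.66 CPM) fell. The part of the dissection borders in the falls of hem, antihem and midline genes was not tested. In the hedgehog list 3 of 10 genes rose and none fell: the effector Gli1 (3.21 to 19 CPM), the ligand trap Hhip (1.07 to 9.60 CPM) and the co-receptor Gas1 (56.0 to 125 CPM), with the receptor Ptch1 at 48.2 and 79.4.

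Genes of activity and hormone response moved in both directions. Of 22 immediate early genes 10 rose and 2 fell (median 0.93), and in the glial gate 12 of 18 rose and none fell, against 1 rise and 2 falls among 14 in the Neurod gate. Egr1, a zinc finger gene induced within minutes of stimulation, went from 464 to 1204 CPM in the whole library, from 396 to 2284 in the glial gate and from 345 to 374 in the Neurod gate. Fos went from 422 to 972 CPM, and in the glial gate from 669 to 2440. Egr1 was counted in 16 of 62 glial-gate cells at E14.5 (25.8%) and in 224 of 276 at P0 (81.2%), and in 36.5% and 24.6% of Neurod-gate cells. Junb (50.7 to 133 CPM), Nr4a1 (14.8 to 66.7 CPM) and Atf3 (6.60 to 35.4 CPM) rose in the whole library, and Nr4a2 and Nr4a3 (44.2 to 21.2 CPM) fell. The knockout-labelled pair had Egr1 at 297 and 1458 CPM. The part of the trypsin dissociation in the immediate early gene values was not tested.

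Klf9, which both thyroid hormone and glucocorticoids induce, went from 17.5 to 141 CPM, a log2 ratio of 3.02 (2.71 to 3.33), and stood at 8.75 and 96.3 in the other pair. Of 8 glucocorticoid-responsive genes 5 rose and none fell (median 1.15), among them the sulfotransferase Sult1a1 (2.14 to 12.2 CPM), the clock gene Per1 (15.7 to 38.7 CPM) and the receptor Nr3c1 (21.6 to 47.8 CPM). Fkbp5 stood at 33.4 and 48.8 CPM. In the thyroid hormone list 4 of 13 genes rose and 2 fell (median -0.28): the transporter Slco1c1 went from 39.2 to 130 CPM and the activating Dio2 rose as given above, whereas the inactivating deiodinase Dio3 had 40 counts and 5.

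Metallothioneins, small proteins that bind zinc and copper, rose. Mt1 went from 21.6 CPM at E14.5 to 155 at P0, a log2 ratio of 2.85 (2.57 to 3.13), Mt2 from 27.3 to 161 and Mt3 from 90.1 to 336. Of 11 genes in the list 5 rose and none fell, the others being the zinc exporter Slc30a1 (19.6 to 46.3 CPM) and the transferrin receptor Tfrc (47.8 to 123 CPM, with a log2 ratio of 0.49 and no call without the cells rich in non-neural markers). In the glial gate Mt1 stood at 58.7 and 393 CPM and Mt2 at 101 and 445. In the other pair Mt1 stood at 16 and 107 CPM. Ferritin genes, which store iron, were not called, with Fth1 at 462 and 762 CPM and Ftl1 at 568 and 553.
Metal response elements, the sites of the zinc sensor Mtf1, were searched as TGCACNC and TGCGCNC on either strand, separately from the motif above. They lay in 6 of the 10 windows found for 8 genes of the list, and in 25.7% of all windows. The 200 bases before the start are shown, with the matches in capitals, for Mt1, Mt2 and Slc30a1, picked from the 5 genes that rose. Mt3 and Tfrc are not shown. Other matches lie farther upstream or after the start. Matches were not compared between the genes that rose and those not called.
Mt1, chr8:94178889-94179088, plus strand: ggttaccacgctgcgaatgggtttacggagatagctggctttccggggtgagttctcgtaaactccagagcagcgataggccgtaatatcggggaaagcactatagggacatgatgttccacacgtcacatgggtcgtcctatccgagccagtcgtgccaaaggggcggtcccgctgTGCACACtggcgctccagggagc
Mt2, chr8:94172418-94172617, plus strand: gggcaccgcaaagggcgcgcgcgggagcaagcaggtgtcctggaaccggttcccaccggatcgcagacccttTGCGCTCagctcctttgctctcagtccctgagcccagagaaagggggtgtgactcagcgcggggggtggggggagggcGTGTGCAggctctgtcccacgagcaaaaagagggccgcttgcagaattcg
Slc30a1, chr1:191906581-191906780, plus strand: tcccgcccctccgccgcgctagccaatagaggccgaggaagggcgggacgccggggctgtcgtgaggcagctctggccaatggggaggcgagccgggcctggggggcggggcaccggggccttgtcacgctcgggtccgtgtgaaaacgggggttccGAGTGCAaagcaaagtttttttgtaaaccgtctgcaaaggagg

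Non-neural cells differed in number and kind. Cells in which markers of blood, vessels, meninges, choroid plexus, ependyma or microglia took at least 1% of counts were 65 of 620 at E14.5 (10.5%) and 56 of 1047 at P0 (5.35%). The choroid plexus, which secretes cerebrospinal fluid, had the lowest median of the lists measured, -6.15, and 9 of 10 genes fell. Ttr, its transthyretin, had 56050 counts at E14.5 and 2 at P0 (9998 and 0.331 CPM), a log2 ratio of -14.88 (-17.93 to -13.03), and 17 cells with at least 5% Ttr at E14.5 against 0 at P0. Kcne2 had 382 counts and 0, which is 137-fold lower with 3 counts set in place of 0. Cells with at least 1% of counts in the choroid plexus list were 20 at E14.5 and 0 at P0, and 135 and 0 in the other pair. The part of the dissection in these values was not tested. At E14.5, 6.08% of Neurod-gate cells held a Ttr count at equal depth, against 0.251% at P0. Meningeal fibroblast genes fell in 7 of 12 cases and rose in 1 (median -1.62), with Col1a2 at 198 and 49.2 CPM and Ogn at 23.7 and 3.14. Of 18 collagen genes 12 fell. Without the non-neural cells 1 of these genes rose and 5 fell among the 12 that could still be measured.

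Of the small leucine-rich proteoglycans, the family of Tsku, 6 of 9 measured genes fell and none rose (median -1.54). That is 66.7% lower, against 4.96% of all genes measured. In the knockout-labelled pair the median was -0.41, and 3 of these 6 genes went the same way. Without the top cell of each gene the list's median shifted by 0.68, the most of any list. Lum had 58 counts at E14.5 and 5 at P0 and Dcn went from 26.4 to 11.3 CPM. In the microglia list 6 of 17 genes rose and 2 fell. Trem2 (3.21 to 15.7 CPM) and C1qb (29.3 to 75.3 CPM) rose, and Mrc1 (95.2 to 17.4 CPM) and Pf4 (63.0 to 13.7 CPM), which mark border macrophages, fell. These transcripts came from few cells, 12 at E14.5 and 20 at P0 with at least 1% of counts in the list. Pf4 stood at 27.7 and 41.0 CPM in the other pair. Without the 5% of cells with the highest doublet scores 15 of the 17 genes rose, and without the cells rich in non-neural markers no gene of the list was called.

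Few genes of the housekeeping lists were called. None of the 82 ribosomal protein genes was called (median -0.09), and 1 of 79 nuclear genes of oxidative phosphorylation rose (median -0.02). Of 21 cholesterol synthesis genes 1 rose (median 0.45), although 19 lay above 0 and their summed level went from 1680 to 2391 CPM, a log2 ratio of 0.51 (0.47 to 0.55). In the glial gate 5 of 20 rose and none fell, against 10.2% and 4.36% of all genes measured there.

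Most called genes differed in the share of cells with a count at equal depth. These shares come from the same counts as the calls. For a gene of low level, more RNA per cell also raises the share of cells with a count. The split below therefore cannot tell more cells from more RNA per cell. At 1500 counts per cell, 778 of the 806 genes called higher (96.5%) were counted in a larger share of P0 cells, and 621 of the 658 called lower (94.4%) in a smaller share. Among genes counted in at least 5 cells of each library, the share changed by a median log2 ratio of 1.16 for 410 genes called higher and the counts per positive cell by 0.14. For 288 genes called lower these medians were -1.17 and -0.08.

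**Figure D5:**
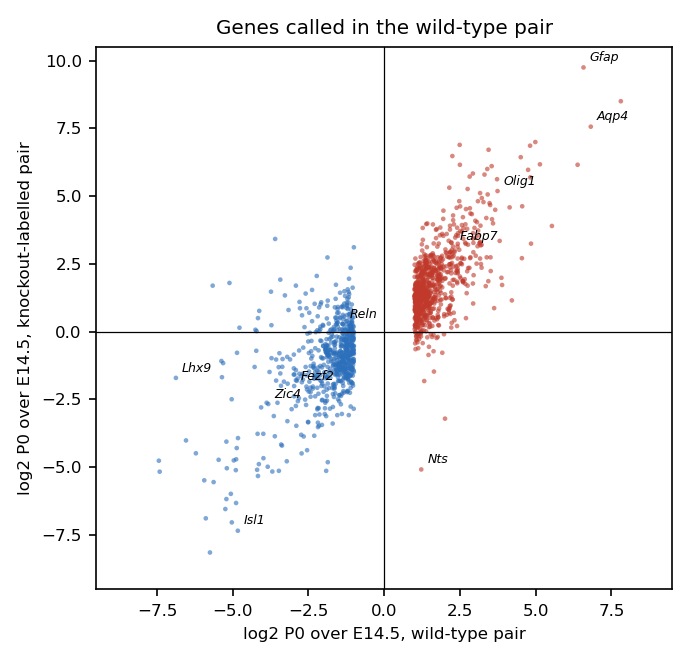
Log2 ratio of P0 over E14.5 in the wild-type pair (horizontal axis) against that in the knockout-labelled pair (vertical axis) for 1460 genes called in the wild-type pair, with 3 more outside the axes. Red points were called higher and blue points lower in wild type; most points lie in the quadrants where both pairs have the same sign, and Nts and Reln lie outside them.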

How the data were processed

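Single-cell libraries from the cortex of 1 wild-type mouse at each age were analysed, with the knockout-labelled pair beside them. The authors deposited matrices of raw counts per gene and barcode; whether they were collapsed to molecules and which aligner was used are unstated, and GRCm39 and Seurat 5 appear per the submitters' processing notes. Barcodes were filtered and counts summed per library; ratios carry conditional binomial 95% intervals, levels exact Poisson ones and shares exact binomial ones. Where a library held no count, 3 counts stood as its floor. Doublets were kept. Members and 69 gene lists were chosen with earlier results of these data known. Named genes were the 15 in each direction whose interval lay farthest from 0, among called genes with at most 10% of counts in 1 cell and a 2-fold ratio of the same sign in the other pair, besides Tsku, up to 6 members of each list by level or ratio with members against its direction, and the 10 of largest median ratio called in every gate. A few more list members were named after their values were seen. Cells were thinned to 1500 counts for shares and gates, and the procedure was checked on simulated data. Scaling factors alone came from edgeR 4.0.16 and DESeq2 1.42.0 in R 4.3.3, doublet scores from scanpy 1.11.5, intervals from scipy 1.17.1 and figures from matplotlib 3.10.9, under Python 3.11.15. Alternatives covered barcode filters, doublet scores, scaling, count filters, thinning, non-neural cells, the top cell of each gene and per-cell means.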

Additional observations from a re-analysis of the deposited data

Results flagged for a closer look

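Some genes of the lists moved in opposite directions at birth in different gates of the wild-type libraries, called in each. None of these differences was tested, since each age had 1 library, and each value below is the log2 ratio in the first gate minus that in the second. Between the Neurod and the Gad/Dlx gate 24 of 94 genes called in both went opposite ways, between the Neurod and the glial gate 47 of 188, and between the Gad/Dlx and the glial gate 19 of 121.

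Against the Gad/Dlx gate, the Neurod gate differed by 3.26 for the kinase gene Camk2a, 3.59 for the potassium channel Kcnd2 and 2.91 for Pou3f1. The difference was -2.70 for Grm5, -2.88 for Sema6d, -4.06 for the noncoding Snhg11 and -5.62 for Reln, whose counts sat mainly in 1 cell of each library. The globin genes differed by 3.79 (Hba-a2), 4.68 (Hbb-bs) and 6.73 (Hbb-bt), and 2 cells held at least 50% of the Hbb-bs counts in either library.

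Against the glial gate, the Neurod gate differed by -8.71 for Crym, which fell from 77.2 to 2.81 CPM in the Neurod gate and rose from 3.67 to 55.7 CPM in the glial gate. Its 3.67 CPM in the glial gate at E14.5 were 2 counts. The difference was -4.85 for Slc1a2, -4.83 for Grm5, -5.93 for Igfbp3, -3.87 for the imprinted Nap1l5, -3.06 for the Notch ligand Dll3, -3.22 for Hey1 and -3.31 for Sema6a. It was 2.81 for the semaphorin Sema3a and 3.55 for the repellent Slit2.

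The Gad/Dlx gate differed from the glial gate by 2.55 for the mitotic kinase Aurka, -3.15 for Dll3, -3.11 for Kcnd2, -4.06 for Nap1l5 and -4.39 for Slc1a2. The globins differed by -2.84 (Hba-a2), -4.14 (Hbb-bs) and -5.40 (Hbb-bt).

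Of 959 genes called in both pairs of libraries, 36 went opposite ways in the wild-type and the knockout-labelled pair, a difference that was not tested. The list members among them differed, as wild type minus the other pair, by -3.89 for the Wnt receptor Fzd10, -5.21 for Lgr6, 5.22 for Nxph2 and 6.31 for the neuropeptide Nts, of which 1 cell held 58% of the counts at E14.5 and 64% at P0 in wild type.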

How the results depend on the processing

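No paired analysis was possible because each age had 1 wild-type library and the samples share no replicate. Against 806 genes called higher and 658 lower, the higher count was 482 with at least 100 counts and 536 after thinning, and the lower count was 1034 with no count filter, 281 with at least 100 counts, 203 after thinning and 435 without the cells rich in non-neural markers. The share of called genes going the same way in the knockout-labelled pair was 88.3%, and 90.5% without the top doublet scores, 83.5% with no count filter, 92.9% with at least 100 counts, 91.5% after thinning, 91.8% without the non-neural cells and 91.4% without the top cell of each gene. Genes whose share of cells moved with the call were 92.3% of those higher and 88.6% of those lower at 750 counts per cell, and 98.8% and 97.3% at 3000. Of the 68 lists with measured members, between 58 (thinned cells) and 68 kept the sign of their median. The median of the adult globins was -1.09, and 2.07 without the top doublet scores, where Hba-a2 stood at 0.82 and Hbb-bt at 2.06; that of the pericytes was -0.84, and 1.05 without the non-neural cells. Gates of at least 1 count held 48.3% and 44.3% (Neurod) and 20.5% and 18.4% (Gad/Dlx) at E14.5 and P0. Calls were lost under at least 1 other setting for Atf3, C1qb, Crym, Cux2, Dcc, E2f8, Eomes, Fgfr3, H19, Junb, Mal, Ncan, Notum, Nr3c1, Nr4a3, Nrarp, Nts, Pou3f3, Slc30a1, Tfrc and Wnt5a. A gene that could not be measured under a setting was not counted as lost there. Of 213 named genes checked, 173 could be measured after thinning and 188 with at least 100 counts. Without the non-neural cells 196 could be, and without the top cell of each gene 210. TMM scaling moved the median of all genes from 0.07 to 0.00, and median-of-ratios scaling gave 709 genes higher and 729 lower. With 62 glial-gate cells at E14.5, transcripts of low level could not be measured there, and no interval covers the spread between animals. The cause was not tested.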
